A study of Oryza sativa Japonica Group with 3 samples.

Results

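Transcript levels in rice seedlings grown from seed given a low fluence of nitrogen ions were compared with those in seedlings from untreated seed. The measure was RNA sequencing, expressed as FPKM, fragment counts scaled to transcript length and to the mapped fragments of the library. FPKM was summed over the transcripts of each annotated locus, and a locus was compared if it stood above 0 in all 3 libraries of the study with a mean of at least 10 FPKM. Of 55759 annotated loci, 9258 met this, and 179 of them showed a gap of 2-fold or more between low fluence and control on the scale of FPKM + 1. These 179 loci, 84 higher and 95 lower after low fluence, are described here.

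All material was whole seedlings of the Japonica cultivar Xindao-18, kept on moist filter paper at 28 °C and sampled at 96 h. The control library was made from 1 RNA pool of 50 buds from seed without implantation. The low fluence library was a mixture of 2 pools of 50 buds each, given 1 and 2 in units of 1e+17 N+ ions per square centimetre, with 10 µg of RNA from each, and its labelled response was no significant damage. The high fluence library, used here for the level requirement and for values set beside the comparison, mixed the pools given 6 and 8 in the same unit, and its labelled response was significant damage. The labels print the power as plain digits, taken here as an exponent. With 1 library of pooled RNA in each group there is no replicate, so no SD and no p-value can be given, and a difference between libraries cannot be set against the spread between seedlings or pools. Buds of similar height were taken, and the growth effect behind the response labels was scored later, on the seventh day. In whole seedlings, fewer cells of a type and less RNA per cell cannot be told apart.

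Low-energy ion beams are used in crop mutation breeding. An implanted ion deposits energy, mass and charge in the seed, and irradiated plant tissue is known for DNA strand breaks, reactive oxygen species and the repair and antioxidant genes that respond to them. At 96 h a germinating rice seedling is also mobilising its starch reserve and turning green. The files do not pair locus identifiers with gene names or functions, and none of the 55759 identifiers occurs in the reference gene table used (RefSeq assembly ASM3414082v1). With the LOC_ prefix removed, 1 identifier matched a listed synonym, and it was none of the 179. The loci are therefore described by identifier, level, transcripts and surroundings, and no function is assigned to any of them. In an identifier the digits before the g give the chromosome, and the number after it runs along that chromosome.

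Most of the loci compared stood at similar levels with and without low fluence, and loci under the level requirement are not covered by this. The log2 ratio of low fluence to control had a median of -0.07 over the 9258 loci, with quartiles of -0.25 and 0.14 and 5th and 95th percentiles of -0.56 and 0.56. A 2-fold difference was reached by 1.93% of the loci, with 0.907% higher and 1.03% lower. Those shares are also the background for every count below, since the 2-fold rule itself chose the loci. At 1.5-fold, 424 loci were higher and 396 lower. At 3-fold, 15 were higher and 25 lower, at 4-fold 5 and 14, and at 8-fold 2 and 5. Beyond 3-fold there were thus more lower than higher loci, while at 1.5-fold and 2-fold the counts were nearly even. The surplus beyond 3-fold was counted without the assembled units described below. With those added, 3 of the 10 lowest ratios stayed at least 2-fold different, against 9 of the 10 highest. However, more of the 10 highest than of the 10 lowest had no unit beside them, and the addition cannot alter such loci.

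**Figure D1:**
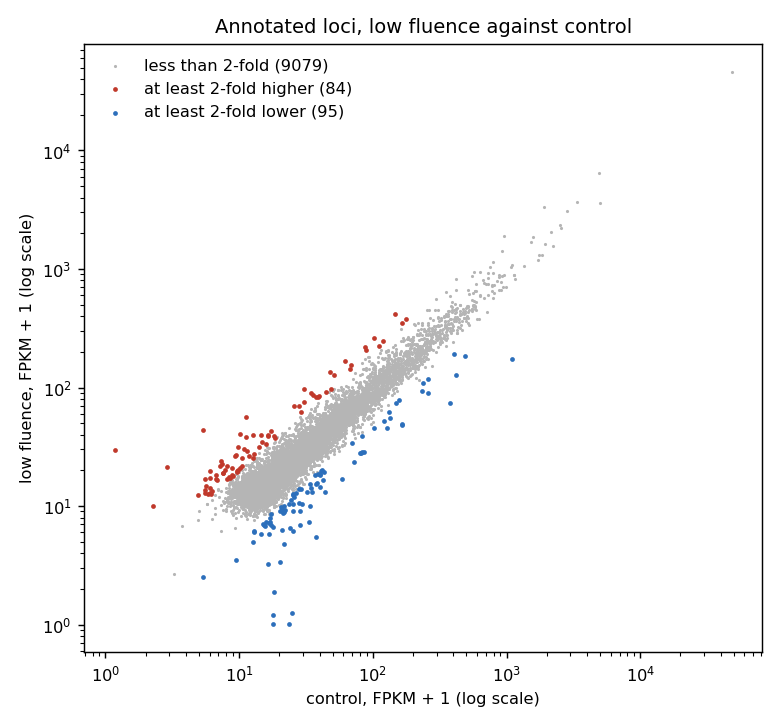
Each point is 1 of 9258 annotated loci, with FPKM + 1 in the control on the horizontal axis and after low fluence on the vertical axis, both on log scales. The 84 loci at least 2-fold higher and the 95 at least 2-fold lower lie at the margins of a narrow band, and a few of the lower loci drop to almost 0 after low fluence.

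The 2-fold limit divided a continuous range of values. The nearest locus inside it on the higher side stood at 11.6 FPKM in the control and 24.3 after low fluence, a log2 ratio of 1.00. The nearest outside stood at 19.8 and 40.6 FPKM and missed the limit only in the fourth decimal. On the lower side the nearest inside stood at 157 and 77.7 FPKM, and the nearest outside at 16.6 and 7.81 FPKM. Loci next to the limit therefore differed little from those just beyond it.

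The 84 higher loci were mostly modest in level. Their median was 9.72 FPKM in the control, 28.2 after low fluence and 23.9 after high fluence, and the highest among them reached 177, 415 and 524 FPKM. Together they held 0.359% of the FPKM of all annotated loci in the control, 0.916% after low fluence and 0.934% after high fluence. The 95 lower loci had a median of 27.5 FPKM in the control, 10.9 after low fluence and 16.3 after high fluence. They held 1.2% of annotated FPKM in the control, 0.42% after low fluence and 0.56% after high fluence. Both irradiated libraries are set against the same control library, so values that return after high fluence are no independent observation of a difference from it.

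The share of loci that differed ran from 1.34% to 2.44% over 4 ranges of level. Of 3724 loci with a mean from 10 to below 20 FPKM, 38 were higher and 53 lower, 2.44% in all. From 20 to below 50 FPKM it was 24 and 22 of 3427, or 1.34%. From 50 to below 200 FPKM it was 18 and 16 of 1736, or 1.96%. Of the 371 loci at 200 FPKM or more, 4 were higher and 4 lower, or 2.16%. Differing loci were thus present among abundant as well as scarce transcripts, and lower loci outnumbered higher ones below 20 FPKM. The small surplus of lower loci over all levels turned to a surplus of higher ones under median-of-ratios scaling, with 105 higher and 86 lower. Upper-quartile scaling kept a surplus of lower loci, with 79 higher and 101 lower. The depth of the low fluence library was estimated at about 0.502 times that of the control, from ratios between the lowest values of the same loci in both libraries. For the high fluence library the estimate was 1.36 times. Other steps related to the chosen one by a small whole number can match part of these ratios, so both depths are uncertain. The part of this depth gap in the differences was not tested.

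**Figure D2:**
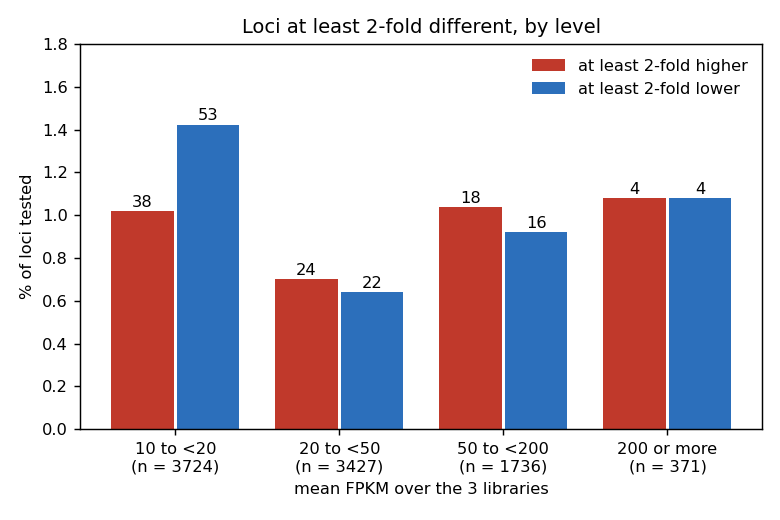
Bars give the percentage of loci tested that were at least 2-fold higher or lower after low fluence than in the control, in 4 ranges of mean FPKM over the 3 libraries, with the number of loci above each bar. From 20 FPKM upward the numbers in each direction are nearly equal, and between 10 and 20 FPKM there are 38 higher and 53 lower loci.

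The loci that differed were spread over all 12 chromosomes. Their share of the loci tested ran from 0.969% on chromosome 5, with 8 of 826 loci, to 3.81% on chromosome 10, with 18 of 473. Chromosome 10 held 8 higher and 10 lower loci, chromosome 12 held 8 and 8 of 461, or 3.47%, and chromosome 9 held 6 and 9 of 495, or 3.03%. Chromosome 7 leaned to the higher side, with 8 higher and 2 lower of 680 loci. On chromosome 2 the lean was the other way, with 5 higher and 12 lower of 1114. No test was made between chromosomes.

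Among the higher loci, the 2 largest ratios belonged to LOC_Os05g04720 and LOC_Os02g37250. LOC_Os05g04720 is on chromosome 5. It had 0.180 FPKM in the control, 28.6 after low fluence and 12.2 after high fluence. It was nearly absent from untreated seedlings and present in both irradiated libraries, most after low fluence. Its mean reached 10 FPKM only through the low fluence library, so a high value there was a condition of being compared. LOC_Os02g37250, which is on chromosome 2, had 4.38, 42.7 and 34.3 FPKM, with similar levels in the irradiated libraries. On the FPKM + 1 scale these are 25.1-fold and 8.12-fold above control after low fluence. The log2 ratio of LOC_Os05g04720 was 6.68 with a pseudocount of 0.1 and 2.70 with one of 5.

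All further loci named here were chosen after their values had been seen. Folds given for them are on the FPKM + 1 scale, which makes them smaller than the ratio of the FPKM printed. LOC_Os05g38940 stood at 1.91 FPKM in the control, 20.2 after low fluence and 11.4 after high fluence, 7.28-fold above control after low fluence. LOC_Os09g36930 stood at 1.26, 8.94 and 23.0 FPKM, 4.41-fold above control after low fluence. Its order differs from that of LOC_Os05g38940, since the high fluence library was the highest. However, LOC_Os09g36930 reached a mean of 10 FPKM only through that library. In LOC_Os06g44190 the low fluence library stood alone, with 9.17 FPKM in the control, 39.6 after low fluence and 8.53 after high fluence. LOC_Os03g15960 had the same shape, with 11.7, 38.4 and 10.8 FPKM. For these last loci the control and high fluence libraries almost coincided, and the low fluence library was above control by log2 ratios of 2.00 and 1.64. LOC_Os05g38940 and LOC_Os06g44190 reached a mean of 10 FPKM only through the low fluence library. For them a high value in that library was a condition of being compared.

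Among the lower loci, the 2 smallest ratios on the FPKM + 1 scale belonged to LOC_Os04g51710 and LOC_Os05g37200. LOC_Os04g51710, which is on chromosome 4, had 22.5 FPKM in the control, 0.00845 after low fluence and 17.7 after high fluence. LOC_Os05g37200, which is on chromosome 5, had 23.8, 0.254 and 14.2 FPKM. Both were all but missing from the low fluence library, yet present after high fluence. With values this near 0 the fold is set by the pseudocount, so that the log2 ratio of LOC_Os04g51710 was -4.54 with a pseudocount of 1, -7.70 with 0.1 and -2.46 with 5. LOC_Os03g11530 was similar, at 16.9 FPKM in the control, 0.00171 after low fluence and 13.2 after high fluence, and with a pseudocount of 0.1 its ratio of -7.39 passed that of LOC_Os05g37200, -6.08. So was LOC_Os02g52420, at 16.8, 0.202 and 15.1 FPKM. LOC_Os03g36534, the fifth lowest, stood at 17.2, 0.887 and 13.0 FPKM. In all 5 the low fluence library alone was near 0. The high fluence library lay nearer to the control, and in LOC_Os05g37200 it was below it by a log2 ratio of -0.70.

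**Figure D3:**
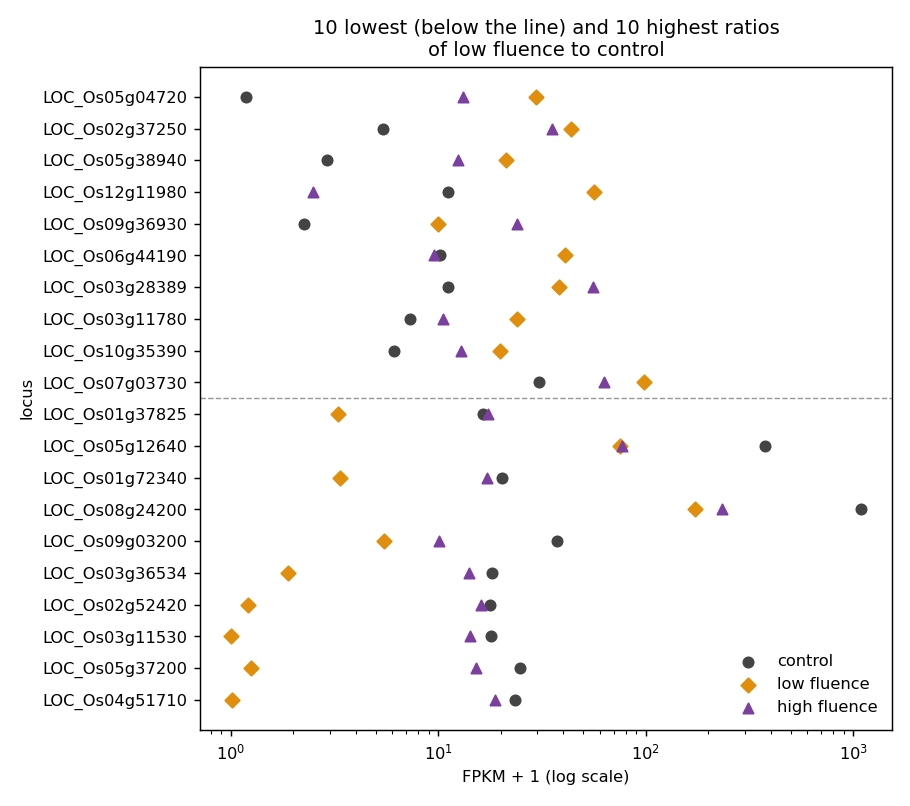
FPKM + 1 on a log scale in the 3 libraries, 1 point per library, for the 10 largest and the 10 smallest ratios of low fluence to control. In the 5 lowest loci the low fluence point lies far left of the other points, whereas LOC_Os08g24200 and LOC_Os05g12640 have low and high fluence together, well below the control.

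These steep lower values were met by opposite values in transcripts listed beside the loci. The files also hold 14179 units with the prefix CUFF, a prefix used by Cufflinks for transcripts it builds from the reads themselves, with no coordinates or gene assignment. An assembled unit occupied the row just before or after 66.7% of the higher loci, 67.4% of the lower loci and 55.2% of all loci tested. The unit beside LOC_Os04g51710, CUFF.8933, stood at 2.11 FPKM in the control, 17.6 after low fluence and 0.00144 after high fluence. CUFF.9906, beside LOC_Os05g37200, was listed at 0 both in the control and after high fluence and stood at 14.6 FPKM after low fluence. CUFF.6665, beside LOC_Os03g11530, was listed at 0 in the control and stood at 13.0 FPKM after low fluence and 1.82 after high fluence. CUFF.6033, beside LOC_Os02g52420, stood at 0.000653, 21.2 and 3.81 FPKM. In each of these 4 pairs the unit was high in the library where the locus was near 0.

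Adding the units to the loci removed most of these differences. LOC_Os04g51710 with its unit came to 24.6 FPKM in the control and 17.7 after low fluence, 1.37-fold lower. LOC_Os05g37200 came to 23.8 and 14.8 FPKM, 1.57-fold lower, and LOC_Os03g11530 to 16.9 and 13.0 FPKM, 1.28-fold lower. LOC_Os02g52420 turned from lower to higher, at 16.8 FPKM in the control and 21.4 after low fluence. Of the 10 lowest ratios, 3 stayed at least 2-fold different once the units were added, and of the 10 highest, 9 did. Loci with no unit beside them could not change, and these were more frequent among the 10 highest. LOC_Os05g04720 came to 8.44 FPKM in the control and 46.2 after low fluence, a log2 ratio of 2.32 in place of 4.65. LOC_Os02g37250 with CUFF.5596, which was listed at 0 in the control and stood at 34.5 FPKM after low fluence and 30.1 after high fluence, came to 4.38 and 77.2 FPKM, 14.5-fold higher.

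Over all 179 loci, 93 remained at least 2-fold different in the same direction with the units added, 49 of the 84 higher and 44 of the 95 lower. This includes 28 higher and 31 lower loci with no unit beside them, which the addition cannot alter. Where a unit was present, 21 of 56 higher and 13 of 64 lower loci stayed. Beside 30 of the 95 lower loci, or 31.6%, lay a unit at least 2-fold different the other way, and beside 11 of the 84 higher loci, or 13.1%. The same held for 7.65% of all loci tested. A locus under 1.5-fold after the addition was counted 18 times among the higher and 43 times among the lower, and 9 higher and 4 lower loci took the other direction. Summed in this way, 14139 loci met the level requirement in all, of which 197 (1.39%) were higher and 171 (1.21%) lower, together 2.60%. Over the same 9258 loci as before, 57 were higher and 62 lower with the units added, 119 in all or 1.29%, against 179 without them. Rows in the files follow position only in part, so a unit in the next row need not overlap the locus, and whether reads were divided between them was not tested.

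**Figure D4:**
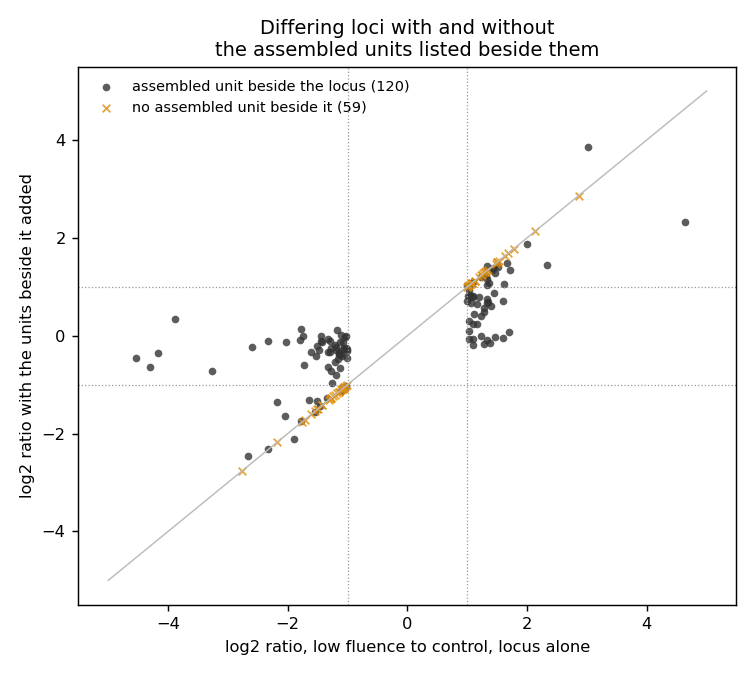
Each point is 1 of the 179 loci, with its log2 ratio of low fluence to control alone on the horizontal axis and with the assembled units in neighbouring rows added on the vertical axis. Dotted lines mark 2-fold, the grey diagonal marks no difference between the scales, and crosses are the 59 loci with no unit beside them. The 5 lowest loci move to between -1 and 1, while the lower loci near -2 to -3 include several that stay on the diagonal.

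The lower loci that kept their difference included abundant transcripts. LOC_Os08g24200, which is on chromosome 8, had 1089 FPKM in the control, 171 after low fluence and 232 after high fluence. It was the most abundant of the 95 in the control, 6.32-fold lower after low fluence and 5.52-fold lower with its unit added. LOC_Os05g12640 stood at 374, 73.7 and 76.1 FPKM, 5.02-fold lower and 4.99-fold lower with its unit. In both loci the irradiated libraries lay close together and far below the control. LOC_Os09g03200, with no unit beside it, stood at 36.5, 4.50 and 9.09 FPKM and was 6.82-fold lower after low fluence. LOC_Os10g36090, also without a unit, stood at 32.5, 6.38 and 5.62 FPKM, 4.54-fold lower. Both LOC_Os09g03200 and LOC_Os10g36090 reached a mean of 10 FPKM only through the control library.

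At a mean of 200 FPKM or more, 4 higher and 4 lower loci were found, LOC_Os08g24200 among them. LOC_Os08g08970 stood at 489 FPKM in the control, 182 after low fluence and 178 after high fluence. Its neighbour in number, LOC_Os08g08980, stood at 415, 125 and 69.1 FPKM, and LOC_Os12g36210 at 403, 192 and 104 FPKM. Their control values were thus 2.68-fold, 3.29-fold and 2.09-fold above those after low fluence, and the latter pair stood lower still after high fluence.

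On the higher side at this level, LOC_Os08g13440 stood at 146 FPKM in the control, 415 after low fluence and 519 after high fluence, 2.82-fold above control after low fluence. LOC_Os03g14050 stood at 177, 376 and 524 FPKM, and LOC_Os12g17600 at 164, 348 and 306 FPKM, each 2.12-fold above control after low fluence. LOC_Os02g43370 stood at 110, 222 and 324 FPKM, only just inside the limit at 2.01-fold. With the unit CUFF.5794 added it came to 205 FPKM in the control and 338 after low fluence, 1.65-fold higher. The other abundant higher loci had no unit beside them.

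**Figure D5:**
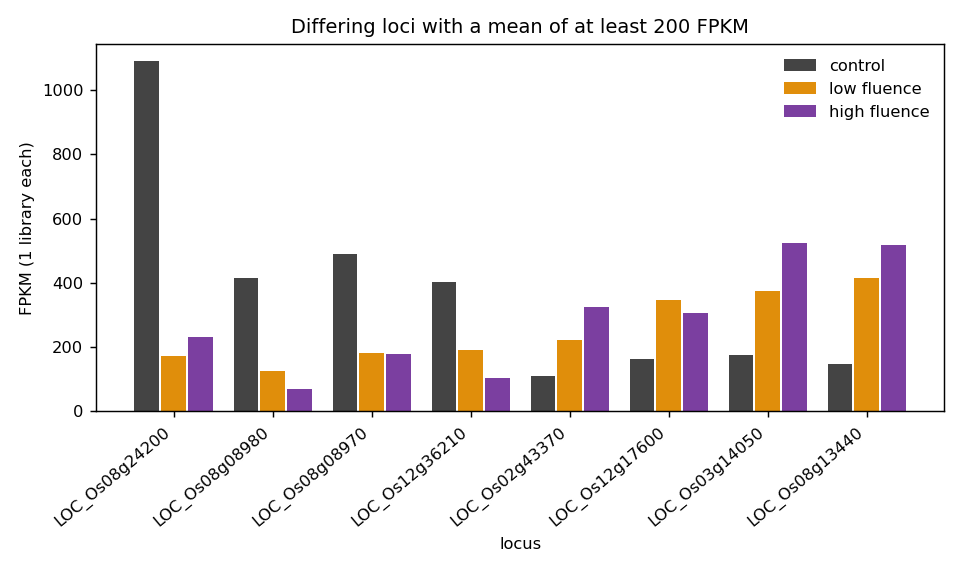
FPKM in the control, low fluence and high fluence libraries, 1 bar per library, for the 8 differing loci whose mean was 200 FPKM or more. The 4 lower loci on the left stand highest in the control, led by LOC_Os08g24200 at 1089 FPKM, and the 4 higher loci on the right stand lowest in the control, between 110 and 177 FPKM.

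Most of the differing loci have 1 annotated transcript. A single transcript was listed for 136 of the 179, and several for 43, or 24.0%, against 36.3% of all 9258. No test was made of this difference. Among those 43, the transcript with the highest FPKM was another one after low fluence than in the control in 13 loci, or 30.2%, made up of 3 of 14 higher and 10 of 29 lower loci. Over all loci with several transcripts it was another one in 249 of 3364, or 7.4%. This difference was not tested either. The 43 loci were chosen by the same FPKM values that rank their transcripts, so the shares are not independent of that choice.

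Some of these loci are given by transcript. LOC_Os11g05110 held 44.7 FPKM in transcript 1 and 26.3 in transcript 2 in the control, and 0.00304 and 0.00520 after low fluence. Its transcript 3 was listed at 0 in the control and stood at 22.5 FPKM after low fluence, and the locus as a whole was 3.06-fold lower. With CUFF.2965, which had 33.7 FPKM after low fluence and was listed at 0 in the control, it was 1.26-fold lower. In LOC_Os06g41590, transcript 1 stood at 25.4 FPKM in the control and was listed at 0 after low fluence, while transcript 3 stood at 1.88 and 5.89 FPKM. With CUFF.11200, which had 18.9 FPKM after low fluence and was listed at 0 in the other libraries, this locus came to 27.3 and 24.8 FPKM and no longer differed 2-fold. LOC_Os09g24650, a higher locus, held 14.7 FPKM in transcript 1 and 0.0245 in transcript 3 in the control, against 3.19 and 29.5 after low fluence. CUFF.13883 beside it stood at 25.9 FPKM in the control and 2.76 after low fluence, and the sum was lower after low fluence, at 35.4 FPKM against 40.7.

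In LOC_Os01g73250 and LOC_Os02g43370 the transcripts differed from the control in the same direction. Both transcripts of LOC_Os01g73250 were higher after low fluence, the first at 20.6 FPKM in the control and 40.7 after low fluence, the second at 17.7 and 42.3. LOC_Os02g43370 likewise stood at 15.5 and 34.6 FPKM in its first transcript and at 94.5 and 187 in its second. LOC_Os05g12640 was carried by its first transcript alone, at 374 FPKM in the control and 73.4 after low fluence, with its other listed transcripts at or near 0. In LOC_Os09g16330 the transcripts went opposite ways. The second stood at 33.2 FPKM in the control and 0.296 after low fluence, while the first stood at 10.0 and 11.8 FPKM. With CUFF.13748, at 37.7 and 68.5 FPKM, that locus came to 80.9 FPKM in the control and 80.6 after low fluence.

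The comparison was also made on single transcripts. Of 9395 annotated transcripts above 0 in all 3 libraries with a mean of at least 10 FPKM, 150 (1.60%) passed 2-fold upward and 152 (1.62%) downward, 3.21% in all. Of these 302, 168 belonged to the 179 loci. For the 136 of these loci with 1 annotated transcript, transcript and locus have the same values. Their passing here was therefore fixed by the choice of the loci. Another 115 belonged to 106 loci whose sum lay within 1.5-fold of the control, so that a difference between transcripts was not one of the locus. In 9 loci 1 transcript was at least 2-fold higher and another at least 2-fold lower, and none of these 9 differed 2-fold as a sum. FPKM of overlapping transcripts is an estimate of how shared reads divide, and its error is not given in the files.

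In all, 4 pairs of differing loci lay at most 30 apart in locus number, and in all 4 both members were lower after low fluence. Over all loci tested, 5001 lay this close to the tested locus before them, counted whatever their direction. Differing loci of a pair may have other tested loci between them, so these counts give no share. How many close pairs go the same way over all loci was not counted, and clustering was not tested. With a pseudocount of 5 a member of 3 of these 4 pairs came under 2-fold, LOC_Os10g40460 at a log2 ratio of -0.92, LOC_Os09g36700 at -0.99 and LOC_Os02g36190 at -0.96, which left the pair on chromosome 8. On chromosome 8 they were LOC_Os08g08970 and LOC_Os08g08980, with the values given above. On chromosome 10, LOC_Os10g40460 stood at 38.2 FPKM in the control, 17.8 after low fluence and 1.59 after high fluence, and LOC_Os10g40470 at 28.4, 9.44 and 2.86 FPKM. Both descended from control through low to high fluence, and both reached a mean of 10 FPKM only through the control library. On chromosome 9, LOC_Os09g36680 stood at 78.5, 26.9 and 37.2 FPKM, and LOC_Os09g36700 at 39.4, 17.3 and 49.6 FPKM, so that this pair parted after high fluence. On chromosome 2, LOC_Os02g36190 stood at 21.0, 8.33 and 16.0 FPKM, and LOC_Os02g36210 at 27.2, 9.51 and 14.01 FPKM, each lowest after low fluence. Loci this close in number may be duplicated genes whose reads cannot be told apart, and the counting of such reads is not described in the sources used here.

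A further 7 loci reached a mean of at least 10 FPKM but were listed at 0 in a library, and were left out of the 179. Of these, 2 were higher and 5 lower after low fluence, and with them the counts were 86 higher (0.928%) and 100 lower (1.08%) of 9265, or 2.01%. Assembled units beside these 7 loci were not examined, so it is not known whether units offset the values below. The 5 lower ones were all listed at 0 after low fluence. Among them, LOC_Os04g28370 had 133 FPKM in the control and 28.9 after high fluence, and LOC_Os08g42480 had 61.8 and was listed at 0 in both irradiated libraries. LOC_Os01g32160 stood at 44.4 FPKM in the control, LOC_Os02g52710 at 31.4 and LOC_Os07g42380 at 22.4. LOC_Os07g42380 stood at 13.9 FPKM after high fluence, LOC_Os02g52710 at 0.365, and LOC_Os01g32160 was listed at 0. On the higher side LOC_Os07g04890, listed at 0 in the control, had 19.2 FPKM after low fluence and 12.1 after high fluence. The other, LOC_Os07g40580, had 7.30 FPKM in the control and 243 after low fluence and was listed at 0 after high fluence.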

How the data were processed

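Each of the 3 libraries has 1 table of FPKM per transcript, deposited by the authors. Reads were aligned with TopHat2 2.0.5, per the submitters' processing notes. Not given in the sources used here are the software behind the assembly and FPKM, the build, the annotation version and whether strand was used. The tables list the same 87523 transcripts, of which 66081 are annotated, 21257 assembled and 185 unplaced.

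FPKM was summed over the transcripts of each locus, and loci above 0 in all 3 libraries with a mean of at least 10 were compared as deposited, on the log2(FPKM + 1) scale, where the differences of low loci are understated. At least 2-fold was called a difference. With 1 library per group no test was run. Python 3.11.15, pandas 2.3.3 and numpy 2.4.6 were used, and the calling was tested on simulated data. The members were chosen with earlier results of these data known. The rule for naming took the 2 highest and the 2 lowest ratios, since identifiers could not be paired with names. Gene lists written as patterns on descriptions could not be applied for the same reason.

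Total counts are not given, so depth is unknown and no counting interval is printed. Relative depth came from single-transcript loci above 0 and under 0.2 FPKM in both libraries. There were 559 for low fluence and control, and 83.5% of their ratios lay within 1% of a fraction of whole numbers up to 6, multiplied by 1 shared step, where a typical other step gave 2.5%. For high fluence it was 77.7% of 983. Steps related to the chosen step by a small whole number can match part of the same ratios. Their shares are not given here, so the depths are estimates only. Alternatives were 3 scalings, pseudocounts of 0.1 and 5, other minimum means and thresholds, single or highest transcripts, added neighbouring units and centring on expression bins.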

Additional observations from a re-analysis of the deposited data

Results flagged for a closer look

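Among the 179 loci, 4 stood at least 2-fold from the control in opposite directions in the irradiated libraries. Any such locus is by definition among the 179, so 4 is also the count over all 9258 loci tested. The number 2-fold away in the same direction is not given, because both comparisons share the control library. No expected number was worked out for the 4. With 1 library per group, the opposition was not tested. LOC_Os01g52240 had a log2 ratio to control of 1.10 after low fluence and -2.48 after high fluence, from 65.9 FPKM in the control, 143 after low fluence and 11.0 after high fluence. With the 2 assembled units beside it added, its ratio after low fluence was 0.79. LOC_Os12g11980 had ratios of 2.33 and -2.17, from 10.2, 55.2 and 1.49 FPKM, and its mean reached 10 FPKM only through the low fluence library. With its units added it came to 28.1, 78.7 and 36.4 FPKM, so that both irradiated libraries stood above the control and the opposition was gone. LOC_Os08g04210 had ratios of -1.08 and 3.0, from 4.34, 1.52 and 41.8 FPKM, with no unit beside it. Its mean reached 10 FPKM only through the high fluence library. Its ratio after low fluence was -1.45 with a pseudocount of 0.1 and -0.52 with one of 5, where it no longer reached 2-fold. LOC_Os07g08340 had ratios of -1.45 and 1.45, from 8.53, 2.49 and 25.1 FPKM, and its sum with CUFF.11701 was 38.4, 35.4 and 40.7 FPKM, so that little difference remained. With a pseudocount of 5 its ratio after low fluence was -0.85. The mean of LOC_Os07g08340 also reached 10 FPKM only through the high fluence library. For it and LOC_Os08g04210 a high value in that library was therefore a condition of being compared.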

How the results depend on the processing

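The counts of 84 higher and 95 lower loci stayed within 1.5 times under the 3 scalings, a pseudocount of 0.1, loci listed at 0 kept, the mean over control and low fluence alone, the highest transcript of each locus, and centring. The side with more loci depended on the setting. Lower loci stayed in the majority under upper-quartile scaling, with 79 higher and 101 lower, and under a pseudocount of 0.1, with 99 and 103. They did so too with loci listed at 0 kept, at 86 and 100, and with the highest transcript, at 89 and 99. The mean over control and low fluence alone gave 82 and 96. Under the other scalings and centring, higher loci led. Median-of-ratios scaling gave 105 higher and 86 lower, rescaling to one sum over annotated loci 106 and 87, and centring 107 and 81, or 43.1% lower in place of 53.1%. Counts moved further under other limits. A pseudocount of 5 gave 50 higher and 54 lower, a minimum mean of 5 gave 173 and 196, one of 20 gave 46 and 42, and no minimum gave 522 and 521. A threshold of 1.5-fold gave 424 and 396, and one of 3-fold 15 and 25, all counted without neighbouring units. Single transcripts gave 150 and 152, and loci with neighbouring assembled units added 197 and 171 of 14139, where more loci reach the minimum mean, but 57 and 62 over the same 9258 loci.

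Of 37 named loci inside the limit, 19 stayed at least 2-fold in the same direction under all 8 alternatives run on single loci. Added units could not alter loci with no unit beside them. The highest transcript could not alter loci with 1 annotated transcript. For such loci the outcome of these alternatives was fixed in advance. Adding neighbouring units left LOC_Os02g52420 at a log2 ratio of 0.33 and LOC_Os09g24650 at -0.19, both reversed, and 10 others under 2-fold. A pseudocount of 5 left 7 under 2-fold. The alternatives for gene lists were not run, because identifiers could not be paired with descriptions. No paired analysis was possible because each group has 1 library. Depth limits the lowest values most, and the low fluence library is the shallowest by the uncertain estimate above.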
